A study of Homo sapiens with 16 samples.

Results

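Transgelins, calponins, tropomyosins, caldesmon and a myosin regulatory light chain were described across the 4 clones of a breast cancer cell model. The 9 genes were taken by name, not by their values: TAGLN, TAGLN2, CNN2, CNN3, MYL9, TPM1, TPM2, TPM4 and CALD1. All 9 were found, each on 1 row, among the 14857 genes of the deposited table.

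RNA was sequenced from MDA-MB-231, an established human triple-negative breast cancer line, in which a tet-off system (doxycycline silences the introduced gene) had been stably integrated. Clones TTP_E11 and TTP_H3 then received a plasmid for tristetraprolin (TTP, the product of ZFP36), an RNA-binding protein that speeds the decay of mRNAs with AU-rich elements, and clones EV_A and EV_B received an empty vector. Each clone has 4 libraries, labelled as biological replicates, so each arm holds 8 libraries from 2 clones. Per the labels, all cells grew with G418 and hygromycin B, the cells with TTP were maintained with 2 µg/mL doxycycline, and doxycycline and the selection drugs were washed out for 24 h or longer before the experiments. The labels give doxycycline maintenance for TTP cells only, so it and the arm cannot be told apart. Each arm has 2 single clones, so the p-values from limma rest on how replicate cultures of a clone vary and say nothing of how clones vary. The permutation tests of shares shuffle single libraries and do not speak for clones either.

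Tropomyosins lie along actin filaments and set which other proteins can reach them. Caldesmon and calponins bind actin and lower the activity of myosin on it, transgelins cross-link actin filaments, and the myosin regulatory light chain switches myosin II on when it is phosphorylated. These proteins are best known from smooth muscle, where serum response factor (SRF) and its myocardin-related cofactors (MRTF) drive many of their genes, and their non-muscle forms build stress fibres in migrating and adherent cells.

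The reads on listed genes were between 14380767 and 22066098 per library. ZFP36 had 10160 to 15041 normalized counts in TTP libraries, against 213.5 to 282.2 in EV libraries (log2 change 5.67, adjusted p = 5.83e-35, limma). The titles of 7 of the 8 libraries with a TTP library name say EV, and the level of ZFP36 goes with the library name in all of them. Replicate 3 of TTP_H3 stood farthest from its clone, with a root-mean-square log2 difference of 0.320 over all genes, against 0.216 to 0.293 in the other 15 libraries. The summed level of 8 markers of the line (keratins, EPCAM, VIM, CD44 and EGFR) was 69841 to 77560 normalized counts in TTP libraries and 83358 to 97946 in EV libraries. Of the 8, 6 were called lower and 1, EGFR, higher (log2 change 0.18, adjusted p = 2.05e-05, limma), against 34.6% and 35.4% of all genes. With each TTP clone set against each EV clone, 3 were lower and 1 higher in all 4 pairs, against 19.5% and 19.0%. Of the markers of smooth muscle and pericytes, 7 of 13 were in the table, and their sum, most of it MCAM, was 1667 to 2026 in TTP libraries and 1505 to 2283 in EV libraries. Of these 7, NOTCH3 rose by 1.30 (adjusted p = 5.97e-09) and PDGFRB by 0.38 (adjusted p = 0.0201), RGS5 fell by 0.31 (adjusted p = 0.0113, all limma), and MYH11, DES, SYNPO2 and MCAM did not pass. Only NOTCH3 was called in all 4 pairs. PDGFRB averaged 199.3 and 225.1 normalized counts in TTP_E11 and TTP_H3, against 210.5 and 122.8 in EV_A and EV_B, so its rise rested on EV_B. The smooth muscle myosin heavy chain MYH11 averaged 12.06 and 11.39 normalized counts in TTP_E11 and TTP_H3, against 13.39 and 11.64 in EV_A and EV_B. Fibroblast markers (4 of 8 in the table) summed to 280.3 to 498.6 in TTP libraries and 234 to 528.1 in EV libraries, and myoepithelial markers (3 of 7) to 290.3 to 426.9 in TTP libraries and 148.6 to 358.6 in EV libraries. The basal keratins KRT5, KRT14 and KRT17 are not analysed here, and the part of these marker levels in the results was not tested. Smooth muscle calponin CNN1, TAGLN3, ACTG2 and myocardin (MYOCD) are not analysed here.

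Since TTP binds AU-rich elements, the 3′ UTRs of the 9 genes were searched for the pentamer ATTTA and for the heptamer TATTTAT, which holds that pentamer, on the transcript strand. The longest annotated 3′ UTR of a coding transcript in GENCODE 29 (GRCh38) was used, and which transcripts these cells use is not known from counts per gene. The heptamer was in this 3′ UTR in 4 of the 9, CNN3, TPM1, TPM4 and CALD1, and in 35.2% of the 12560 genes of the table with a 3′ UTR. It was in 3 of 3 coding transcripts of CNN3, 5 of 6 of TPM4 and 6 of 7 of CALD1, but in only 2 of 17 of TPM1. The longest 3′ UTR of TPM1 belongs to a short transcript that ends at position 63047726, far before the end of the gene at 63071915. The 30 bases around the site are shown for CNN3, which fell, and for TPM4, which rose, with the heptamer in capitals and each line read 5′ to 3′ on the gene's strand.
CNN3, chr1:94897014-94897043, minus strand: ttcttcaactgTATTTATtgctgcatttct
TPM4, chr19:16102846-16102875, plus strand: caccctactccTATTTATtcagcaccacac

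The pentamer was in 6 of the 9 genes, against 72.9% of genes with a 3′ UTR. TPM1 held 10 pentamers in the 3493 bases of that short transcript and at most 4 in its transcripts without the heptamer. CALD1 held 8 in 2383 bases, CNN3 5 in 793 bases, TPM4 3 in 1659 bases, TAGLN2 3 in 693 bases and MYL9 1 in 2198 bases. No pentamer was found in TAGLN (419 bases), CNN2 (1168 bases) or TPM2 (233 bases). The median 3′ UTR of the table was 1350 bases long with 2 pentamers. A match in letters is a description and shows no binding.

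Promoters were searched from 250 bases before to 50 bases after each start in RefSeq (GRCh38.p14) on both strands for the CArG box, the sequence bound by SRF, and for GGAATG, the letters bound by TEAD factors. CNN2 and TPM4 each held 1 full CArG box, 89 and 173 bases before a start, and 1.29% of the 35116 promoters held one. The promoters of TAGLN and MYL9 are not analysed here. GGAATG or its complement was in 14% of promoters, and in 11.7% of those of genes in the table. It stood at 1 start of CNN3 and at 2 starts of CALD1. The promoter of CNN2 and 1 of TPM4 are shown because they hold the CArG box, and 1 of CALD1 because it holds GGAATG, each in capitals.
CNN2, chr19:1026358-1026657, plus strand: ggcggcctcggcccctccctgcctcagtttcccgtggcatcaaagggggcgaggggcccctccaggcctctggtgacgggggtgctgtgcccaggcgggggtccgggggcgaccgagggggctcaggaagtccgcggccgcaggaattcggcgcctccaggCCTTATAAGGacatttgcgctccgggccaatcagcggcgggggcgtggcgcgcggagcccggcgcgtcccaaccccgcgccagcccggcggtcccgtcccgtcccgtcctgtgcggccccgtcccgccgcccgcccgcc
TPM4, chr19:16067288-16067587, plus strand: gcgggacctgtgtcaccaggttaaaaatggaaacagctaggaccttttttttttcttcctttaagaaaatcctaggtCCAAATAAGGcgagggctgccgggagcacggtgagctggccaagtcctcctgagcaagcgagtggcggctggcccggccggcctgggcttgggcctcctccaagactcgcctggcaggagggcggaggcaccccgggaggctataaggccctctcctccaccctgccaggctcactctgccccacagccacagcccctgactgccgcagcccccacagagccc
CALD1, chr7:134779384-134779683, plus strand: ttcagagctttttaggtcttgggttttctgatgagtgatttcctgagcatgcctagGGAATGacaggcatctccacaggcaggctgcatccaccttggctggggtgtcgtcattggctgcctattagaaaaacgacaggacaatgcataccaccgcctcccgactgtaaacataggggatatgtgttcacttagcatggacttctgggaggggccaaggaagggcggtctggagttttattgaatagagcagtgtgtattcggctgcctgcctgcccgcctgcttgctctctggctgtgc

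The first comparison set the 8 TTP libraries against the 8 EV libraries, averaging the clones of each arm. TAGLN, MYL9, CALD1, TPM1, TPM2 and TPM4 rose, TAGLN2 and CNN3 fell, and CNN2 did not pass the test. A gene was called when its adjusted p from limma, over all 14857 genes, was under 0.05. The call of 6 higher and 2 lower genes stands against 35.4% of all genes called higher and 34.6% called lower, 70.0% in either direction. Scaling libraries to their totals moves that background to 6450 genes higher and 4060 lower, against 5261 and 5144 here. The median log2 change was 0.25 over the 9 genes and 0.00 over all genes. The authors' deposited table gives log2 fold changes of the same sign for all 9 genes, with adjusted p-values of 0.16 for CNN2 and 0.0278 for TPM2. When each TTP clone was set against each EV clone, 5 genes (TAGLN, MYL9, CALD1, TPM1 and TPM4) were higher in all 4 clone pairs, as were 19.0% of all genes, and 2 (TAGLN2 and CNN3) were lower in all 4, as were 19.5%. The libraries of the arms did not overlap for 5 of the 9, with TAGLN, MYL9 and CALD1 above and TAGLN2 and CNN3 below, and they did not overlap for 31.8% of all genes. In bulk RNA, fewer cells with a transcript and less of it per cell cannot be told apart. Values below are normalized counts, a change is the log2 change of the normalized count + 1 ± SE, and means are ± SD over 4 libraries of a clone.

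**Figure D1:**
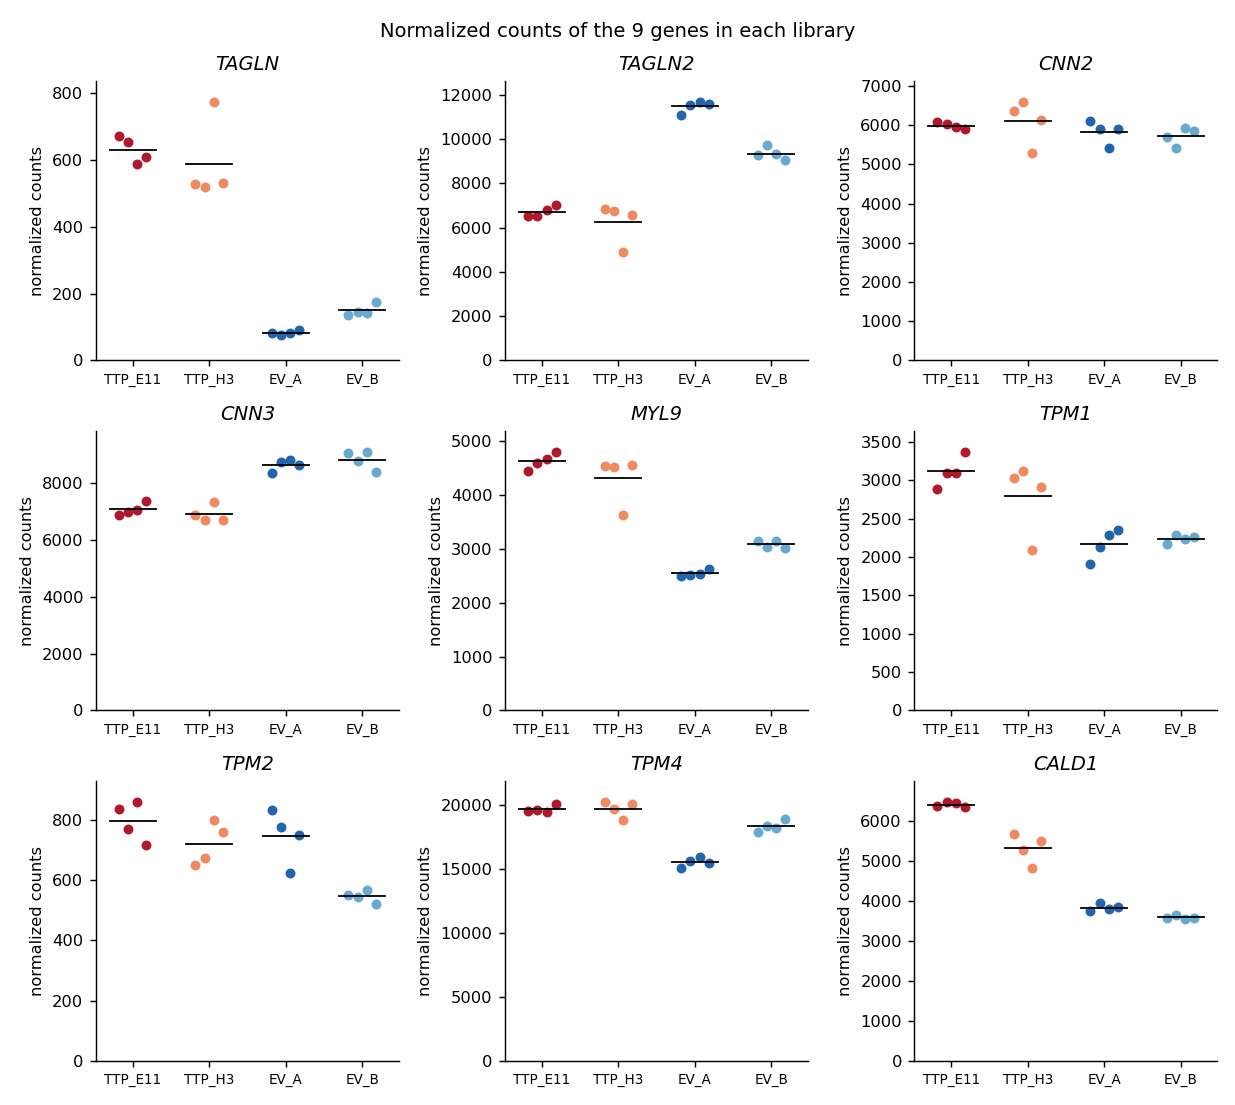
Normalized counts (y axis, from 0) of the 9 genes in each of the 16 libraries, by clone on the x axis; points are libraries and bars are clone means. TAGLN, MYL9 and CALD1 lie higher in both TTP clones without overlap, TAGLN2 and CNN3 lie lower without overlap, and CNN2 lies between 5289 and 6600 throughout.

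The transgelins moved in opposite directions. TAGLN, transgelin or SM22 alpha, an actin cross-linker and an early marker of smooth muscle (ENSG00000149591, chromosome 11, 117199321 to 117204782, plus strand, GRCh38), had 670.8, 652.3, 588.9 and 607.4 in TTP_E11 and 528.9, 517.8, 774.1 and 529.9 in TTP_H3, against 80.81, 75.19, 82.27 and 89.64 in EV_A and 136.4, 145.1, 140.8 and 174.9 in EV_B. All 8 TTP libraries lay above all 8 EV libraries, and EV_B lay above EV_A without overlap. The ratio of the arm means was 5.26, and the change was 2.44 ± 0.0732 (adjusted p = 6.44e-22, limma). The change was between 1.95 and 2.93 in the 4 clone pairs.

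TAGLN2, the transgelin of non-muscle cells and the more abundant of the pair here (ENSG00000158710, chromosome 1, 159918107 to 159925732, minus strand), had 6547, 6544, 6782 and 7046 in TTP_E11 and 6825, 6777, 4911 and 6566 in TTP_H3, against 11091, 11562, 11698 and 11601 in EV_A and 9293, 9723, 9326 and 9079 in EV_B. Every TTP library lay below every EV library, with replicate 3 of TTP_H3 the lowest of all. The change was -0.68 ± 0.0587 (adjusted p = 1.48e-07, limma), a ratio of arm means of 0.624. Without replicate 3 of TTP_H3 it was -0.62.

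In normalized counts, the sum of TAGLN and TAGLN2 averaged 7360 ± 211 in TTP_E11 and 6857 ± 789 in TTP_H3, against 11570 ± 272 in EV_A and 9504 ± 259 in EV_B (SD, n = 4 each). TAGLN made up 7.1% to 13.6% of this sum in TTP libraries and 0.646% to 1.89% in EV libraries. The share thus differed between the arms without overlap, while the sum was lower in both TTP clones than in both EV clones. Exons of TAGLN share 446 bases, 11.4% of their length, with PCSK7 on the opposite strand, and the labels do not say whether the libraries kept strand. PCSK7 had a change of -0.04 (adjusted p = 0.423, limma).

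**Figure D2:**
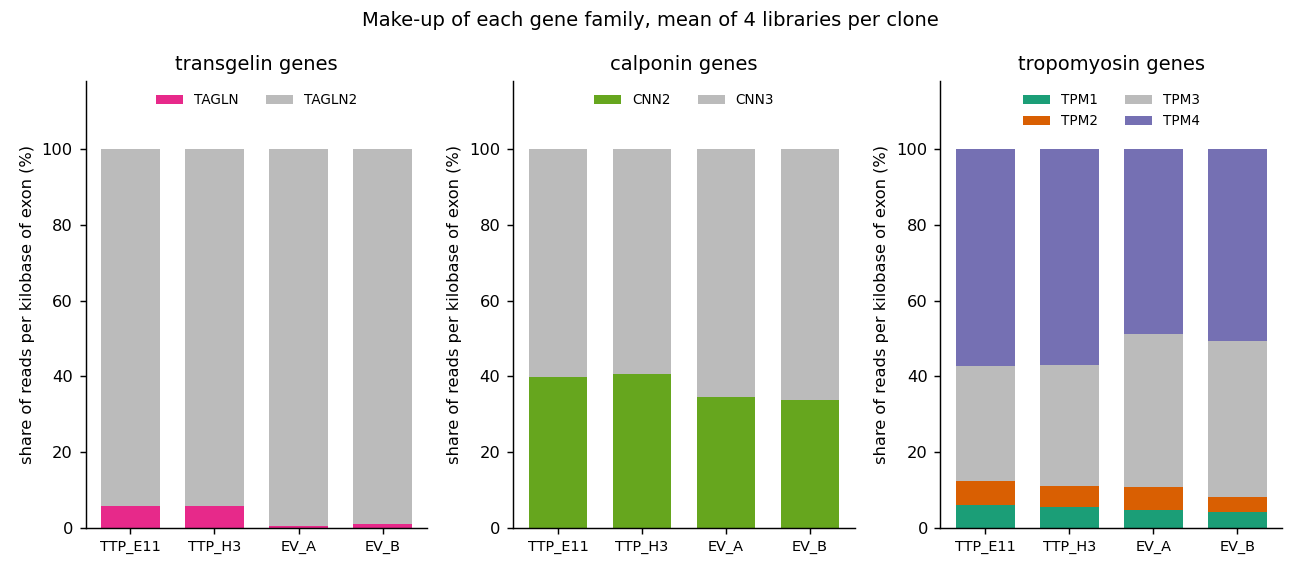
Share (%) of each gene in the reads per kilobase of exon of its family, as means of the 4 libraries of a clone (x axis), for the transgelin, calponin and tropomyosin genes in the table. TAGLN takes 5.62% and 5.82% in TTP_E11 and TTP_H3, against 0.451% and 1% in EV_A and EV_B, and TPM4 takes 57.4% and 57.1%, against 48.7% and 50.8%.

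Of the calponins, CNN3 fell and CNN2 did not pass the test. CNN3, the acidic calponin of non-muscle cells (ENSG00000117519, chromosome 1, 94896949 to 94927278, minus strand), had 6876, 6989, 7060 and 7343 in TTP_E11 and 6853, 6704, 7318 and 6697 in TTP_H3, against 8329, 8721, 8803 and 8614 in EV_A and 9035, 8767, 9085 and 8364 in EV_B. No TTP library reached the lowest EV library. The change was -0.32 ± 0.0239 (adjusted p = 1.29e-13, limma), and it was between -0.29 and -0.35 in the 4 clone pairs, the narrowest spread over clone pairs of the 8 called genes.

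CNN2, calponin 2, which binds actin in non-muscle and smooth muscle cells (ENSG00000064666, chromosome 19, 1026581 to 1039068, plus strand), had 6072, 6037, 5955 and 5909 in TTP_E11 and 6369, 6600, 5289 and 6126 in TTP_H3, against 6115, 5895, 5421 and 5906 in EV_A and 5703, 5411, 5939 and 5849 in EV_B. The arms overlapped between 5411 and 6115, and replicate 3 of TTP_H3 lay below all other libraries. Without it the lowest TTP library had 5909. The change was 0.06 ± 0.0367 with a 95% confidence interval of -0.01 to 0.14 (adjusted p = 0.132, limma). This call depended on replicate 3 of TTP_H3: without it the change was 0.10 (adjusted p = 0.000465, limma). The call depended on the scaling too. With all libraries kept, scaling to the upper quartile gave 0.11 (adjusted p = 0.0151) and to the total 0.14 (adjusted p = 0.00212, both limma). GENCODE 29 names 11 pseudogenes of CNN2, none in the table, and reads shared with such copies cannot be placed from these counts.

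The 2 calponins summed to 13060 ± 132 normalized counts in TTP_E11 and 12989 ± 330 in TTP_H3, against 14451 ± 167 in EV_A and 14539 ± 413 in EV_B (SD, n = 4 each). CNN2 took 42% to 49.6% of these reads in TTP libraries and 38.1% to 42.3% in EV libraries. The ranges overlapped only through replicate 3 of TTP_H3, which had the 42%.

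The light chain MYL9 and caldesmon rose by near-equal ratios. MYL9, a regulatory light chain of myosin II and the substrate of myosin light chain kinase (ENSG00000101335, chromosome 20, 36541484 to 36551447, plus strand), had 4444, 4586, 4656 and 4792 in TTP_E11 and 4521, 4513, 3617 and 4550 in TTP_H3, against 2493, 2518, 2537 and 2625 in EV_A and 3146, 3033, 3145 and 3011 in EV_B. All TTP libraries lay above all EV libraries, and EV_B again lay above EV_A. The ratio of the arm means was 1.59 and the change 0.67 ± 0.0370 (adjusted p = 1.77e-13, limma).

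CALD1, caldesmon, which binds actin, myosin and tropomyosin (ENSG00000122786, chromosome 7, 134744252 to 134970728, plus strand), had 6364, 6476, 6450 and 6341 in TTP_E11 and 5666, 5277, 4832 and 5487 in TTP_H3, against 3741, 3937, 3796 and 3854 in EV_A and 3581, 3637, 3555 and 3568 in EV_B. The clones stood in 4 separate steps, with TTP_E11 above TTP_H3, then EV_A, then EV_B, and only EV_A and EV_B came near each other. The ratio of the arm means was 1.58 and the change 0.65 ± 0.0257 (adjusted p = 1.08e-20, limma).

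All 3 tropomyosins among the 9 genes rose on average, by less than TAGLN, MYL9 and CALD1. TPM1, which gives muscle and non-muscle tropomyosins through many transcripts (ENSG00000140416, chromosome 15, 63042632 to 63071915, plus strand), had 2893, 3101, 3098 and 3371 in TTP_E11 and 3035, 3118, 2098 and 2917 in TTP_H3, against 1912, 2129, 2291 and 2355 in EV_A and 2164, 2283, 2233 and 2261 in EV_B. Replicate 3 of TTP_H3 lay inside the EV range, and the other 7 TTP libraries lay above all EV libraries. The change was 0.41 ± 0.0773 (adjusted p = 0.000321, limma), and 0.48 without that replicate. Leaving out 1 library at a time ended the call in at least 1 clone pair in 5 cases (TTP_H3 replicates 1, 2 and 4, and EV_B replicates 1 and 3). An antisense gene, TPM1-AS, covers 2070 bases of TPM1 exons (16.1%), and it averaged 14.66 normalized counts in TTP libraries and 7.409 in EV libraries (change 0.89, adjusted p = 0.00308, limma).

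TPM2, beta-tropomyosin (ENSG00000198467, chromosome 9, 35681992 to 35690121, minus strand), had 837.5, 771, 860.6 and 718 in TTP_E11 and 652, 675.9, 800 and 759.2 in TTP_H3, against 834.6, 778.8, 624.4 and 750.9 in EV_A and 551.3, 544.3, 568.9 and 521.9 in EV_B. Of the EV_A libraries 3 of 4 lay within the range of the TTP clones, and EV_B lay below all other libraries. The change over the arms was 0.25 ± 0.0546 (adjusted p = 0.000313, limma). It rested on EV_B: against EV_B the changes were 0.54 in TTP_E11 and 0.40 in TTP_H3, while against EV_A they were 0.10 (adjusted p = 0.284) and -0.05 (adjusted p = 0.615). The difference between EV_B and EV_A was -0.44 ± 0.0772 (adjusted p = 7.79e-05, limma).

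TPM4, a tropomyosin of non-muscle cells and the most counted of the 9 genes (ENSG00000167460, chromosome 19, 16067021 to 16103005, plus strand), had 19517, 19590, 19405 and 20069 in TTP_E11 and 20218, 19650, 18790 and 20061 in TTP_H3, against 15058, 15575, 15881 and 15475 in EV_A and 17895, 18341, 18171 and 18909 in EV_B. The arms overlapped only through replicate 3 of TTP_H3 and replicate 4 of EV_B. The change was 0.22 ± 0.0201 (adjusted p = 1.37e-11, limma). It was 0.34 for both TTP clones against EV_A and 0.10 for both against EV_B, and EV_B was above EV_A by 0.24 ± 0.0284 (adjusted p = 5.99e-08, limma). When the reads were summed to 1 value per clone, TPM4 and TPM2 were no longer called (adjusted p = 0.165 and 0.27, edgeR).

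The fourth tropomyosin gene, TPM3, was not among the 9. It had 9914 to 11178 normalized counts in TTP libraries and 12317 to 14703 in EV libraries, a change of -0.37 ± 0.0201 (adjusted p = 3.2e-17, limma). GENCODE 29 names 8 pseudogenes of it, 2 of them in the table. The make-up of the family was therefore compared as shares of reads per kilobase of exon within each library. Such shares are free of the scaling of libraries, while the sum over the family is not.

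TPM4 took 57.3% of tropomyosin reads per kilobase of exon in TTP libraries and 49.7% in EV libraries, a difference of 7.54 percentage points (exact two-sided permutation test of 8 against 8 libraries, p = 0.000155, the smallest that 12870 splits can give). This test treats the 8 libraries of an arm as independent although they come from 2 clones, so its p-values are no evidence over clones. TPM1 took 5.77% in TTP libraries and 4.36% in EV libraries, a difference of 1.4 points (p = 0.000777, same exact permutation test). TPM2 took 5.88% in TTP libraries and 5.14% in EV libraries, a difference of 0.746 points that did not pass (p = 0.165, same exact permutation test). Against EV_A alone the TPM2 difference was -0.367 points (p = 0.402), and against EV_B alone 1.86 points (p = 0.00202, exact permutation tests, the smallest that 8 against 4 libraries can give). The size of the TPM1 and TPM2 differences depends on the length used: on plain reads they were 2.09 and 0.273 points, and per kilobase of the median coding transcript, an alternative chosen after seeing the data, 3.83 and 0.485 points, with TPM1 past the threshold and TPM2 not in each case. TPM3 took 30.3% ± 0.18 and 31.9% ± 1.4 in TTP_E11 and TTP_H3, against 40.4% ± 0.22 and 41.1% ± 0.5 in EV_A and EV_B (SD, n = 4 each). Shares within a family are bound to each other, so the fall of TPM3 by itself raises the other shares. In normalized counts per kilobase of exon, TPM4 had 2276 and 2280 in TTP_E11 and TTP_H3, against 1795 and 2123 in EV_A and EV_B. By the same measure TPM3 had 1199 and 1271, against 1490 and 1719. The sum over the 4 genes, in normalized counts per kilobase of exon, was 3962 ± 41.4 in TTP_E11 and 3990 ± 55.4 in TTP_H3, against 3684 ± 46.1 in EV_A and 4184 ± 69.9 in EV_B, so the sums of the TTP clones lay between those of the EV clones. The make-up thus differed between the arms where the sum did not separate them. Reads that fit several tropomyosin genes or transcripts are not resolved by counts per gene.

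**Figure D3:**
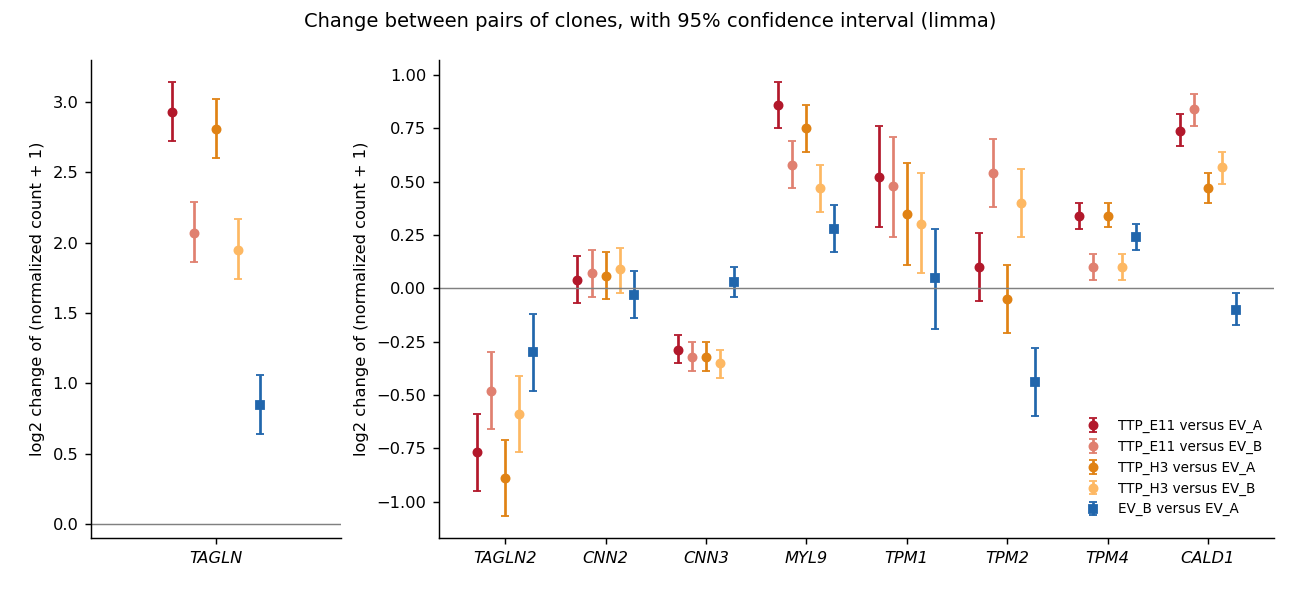
Log2 change of the normalized count + 1 (y axis) for each of the 9 genes (x axis) in the 4 pairs of a TTP and an EV clone (circles) and in EV_B versus EV_A (squares), with 95% confidence intervals from limma; TAGLN has its own scale. TAGLN changes by 1.95 to 2.93 across the clone pairs and by 0.85 between the EV clones, CNN3 by -0.35 to -0.29 and by 0.03.

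The next question was how far the clones of 1 arm differed in these genes. Between the TTP clones, TTP_H3 was set against TTP_E11. CALD1 alone of the 9 genes was called, lower in TTP_H3 by a change of -0.27 ± 0.0363 (adjusted p = 2.84e-06, limma), where 11.7% of all genes were called. The median change of the 9 genes was -0.11, from -0.27 in CALD1 to 0.02 in CNN2. CALD1 was 0.79 above the EV clones in TTP_E11 and 0.52 above them in TTP_H3, so it was higher than in EV in both. Without replicate 3 of TTP_H3, TAGLN was called too, at -0.26 (adjusted p = 0.0427, limma), so that 2 of the 9 were called. ZFP36 itself was higher in TTP_H3 than in TTP_E11, by 0.45 (adjusted p = 1.71e-06, limma).

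Between the EV clones, which carry no TTP plasmid, EV_B was set against EV_A. Of the 9 genes 6 were called, where 36.8% of all genes were called. TAGLN (0.85), MYL9 (0.28) and TPM4 (0.24) were higher in EV_B, and TAGLN2 (-0.30), TPM2 (-0.44) and CALD1 (-0.10) were lower. The call on CALD1 was near the threshold (adjusted p = 0.0371, limma) and was lost in 6 of the 8 fits that left out 1 EV library. For TAGLN, MYL9, TPM4 and TAGLN2, EV_B differed from EV_A in the direction in which the TTP clones differed from both. The difference between the EV clones was smaller than that of either TTP clone from EV_B for TAGLN, MYL9 and TAGLN2, and larger for TPM4. These differences share EV_B and their sizes were not tested against each other. CNN2, CNN3 and TPM1 had changes of -0.03, 0.03 and 0.05 between the EV clones, with confidence intervals of -0.14 to 0.08, -0.04 to 0.10 and -0.19 to 0.28.

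Replicate 3 of TTP_H3 was compared with the other 3 libraries of its clone gene by gene. All 9 genes lay outside the range of the other 3 libraries there, against 64.0% of all genes in that library and 38.0% to 62.7% in the other 15. TAGLN was above (774.1, against 517.8 to 529.9), as were CNN3 (7318, against 6697 to 6853) and TPM2 (800, against 652 to 759.2). TAGLN2 was below (4911, against 6566 to 6825), as were MYL9 (3617, against 4513 to 4550) and TPM1 (2098, against 2917 to 3118), and CNN2, TPM4 and CALD1 too. MYL9 and TPM1, both higher in TTP clones, were thus low in this library while TAGLN was high. What sets the library apart was not tested.

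**Figure D4:**
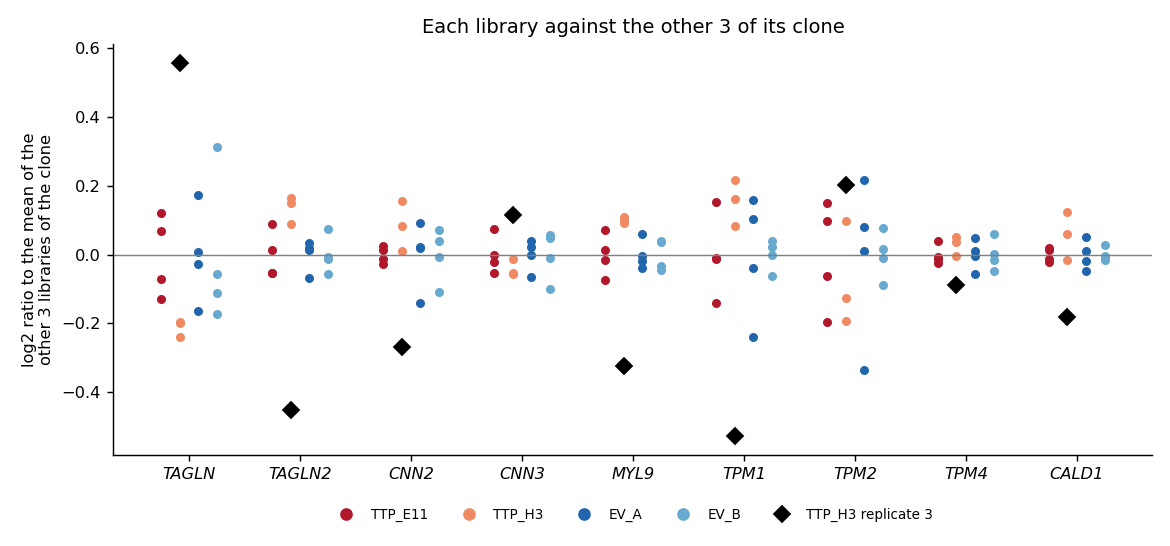
Log2 ratio of each library to the mean of the other 3 libraries of its clone (y axis) for the 9 genes (x axis), coloured by clone, with replicate 3 of TTP_H3 as black diamonds. That library is highest for TAGLN, at 774.1 normalized counts against a mean of 525.5 in the other 3 libraries, and lowest for TAGLN2, CNN2, MYL9, TPM1, TPM4 and CALD1.

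Levels of different genes were compared as normalized counts per kilobase of the union of a gene's exons. In TTP_E11 the order from the highest was TAGLN2 (2706), CNN3 (2490), TPM4 (2276), CNN2 (1644), MYL9 (1637), CALD1 (651), TPM2 (245.3), TPM1 (242) and TAGLN (160.8), where the ranges of mean ± SD overlapped for CNN2 and MYL9, and for TPM2 and TPM1. In TTP_H3 the order was the same, and such ranges overlapped for TAGLN2 (2521 ± 367) and CNN3 (2429 ± 103), for CNN3 and TPM4 (2280 ± 74.1), and for the same neighbours as in TTP_E11. In EV_A the order was again the same, with TAGLN2 at 4619 and TAGLN at 20.93, and no neighbours had overlapping ranges. In EV_B the order held but for TPM1 (173.6) and TPM2 (168.3), which did not differ beyond their spread. TAGLN had the lowest mean of the 9 in all 4 clones, but in TTP_H3 its range (150 ± 31.8) overlapped that of TPM1 (216.8 ± 36.5).

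The order rests on the length used. Per kilobase of the median coding transcript, TPM4 led in TTP_E11 (7944), TTP_H3 (7958) and EV_B (7412), and TAGLN2 led in EV_A (7167, against 6267 for TPM4). TPM1, whose exons together span 12876 bases while its median coding transcript has 1100, then stood at 2832 in TTP_E11 and 2538 in TTP_H3, against 1974 in EV_A and 2032 in EV_B. The mean of TAGLN was last in each clone by this length too, with a range that overlapped that of TPM2 in TTP_H3.

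The genes most like TAGLN and CALD1 across the clones were named by the smallest root-mean-square difference of the 4 clone means of log2(normalized count + 1), each gene centred on its own mean, over 16 libraries. For TAGLN these were INAVA (0.0557), SEMA3E (0.0636), LINC01111 (0.0886), CREB5 (0.0993) and ACOXL (0.122). INAVA averaged 142.9 and 136.6 normalized counts in TTP_E11 and TTP_H3, against 19.06 and 31.83 in EV_A and EV_B. LINC01111 averaged only 21.25 and 20.69, against 2.361 and 4.003, so the pseudocount of 1 weighs on its place. For CALD1 they were ZNF420 (0.0238), FAM84B (0.0263), PLAG1 (0.0276), HDAC9 (0.0325) and RCN3 (0.0359). HDAC9, a class IIa histone deacetylase, averaged 1569 and 1381 in TTP_E11 and TTP_H3, against 967.3 and 922.9 in EV_A and EV_B. This measure takes in the size of a change as well as its pattern. Among the other 8 genes MYL9 came nearest to TAGLN, at place 1005. TAGLN changed by 2.44 and MYL9 by 0.67 in TTP versus EV, so a distant place shows no difference in pattern. TPM1 and MYL9 came nearest to CALD1, at places 493 and 593.

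The 9 genes were then set beside the rest of the actin and myosin machinery in 6 gene lists, which share some members. The cytoplasmic actins fell: ACTB by 0.51 ± 0.0229 on the log2 scale (adjusted p = 8.79e-18, limma) and ACTG1 by 0.19 ± 0.0236 (adjusted p = 2.73e-08). Of 5 measured actins 2 were lower and 1 higher. For this and the following lists, 34.6% of all genes were called lower and 35.4% higher, and 19.5% and 19.0% in all 4 clone pairs. The higher one, named here after its values were seen, was ACTA2, smooth muscle alpha-actin, which averaged 97.3 and 78.02 normalized counts in TTP_E11 and TTP_H3, against 55.77 and 40.28 in EV_A and EV_B (change 0.91 ± 0.166, adjusted p = 4.52e-05, limma), without a call in all 4 clone pairs. The median change of the list was -0.03.

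Of 7 myosin II chains 3 were higher and 3 lower, against 35.4% and 34.6% of all genes, with a median change of -0.08. The essential light chains MYL6 (0.25) and MYL6B (0.49) were higher in all 4 clone pairs, as MYL9 was. The non-muscle heavy chain MYH9 (-0.41) and the regulatory light chain MYL12A (-0.40) were lower in all 4. MYL12A, a close paralog of MYL9, averaged 3308 and 3371 normalized counts in TTP_E11 and TTP_H3, against 4514 and 4279 in EV_A and EV_B. The regulatory light chains MYL9 and MYL12A thus changed in opposite directions. MYL12B, another regulatory light chain of the list, named after its values were seen, was called lower (-0.11, adjusted p = 0.000171, limma). It was not called in all 4 clone pairs.

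Of 18 measured regulators of light chain phosphorylation 13 were lower and 2 higher, against 34.6% and 35.4% of all genes. In all 4 clone pairs 11 were lower and 2 higher, against 19.5% and 19.0%. The median change was -0.31. The kinase MYLK, which phosphorylates the regulatory light chain, averaged 1109 and 1067 normalized counts in TTP_E11 and TTP_H3, against 2371 and 1528 in EV_A and EV_B (change -0.81 ± 0.0592, adjusted p = 3.23e-09, limma). It also differed between the EV clones, by -0.64 in EV_B. The kinases CDC42BPA (-1.08) and CIT (-0.56) and the exchange factor ARHGEF2 (-0.67) were lower as well. The list also holds genes of the phosphatase that acts against the kinases. Of these PPP1CB (-0.37) and PPP1R12A (-0.27), named after their values were seen, were lower in all 4 clone pairs too. PPP1R12B (0.13, adjusted p = 0.0548) and PPP1R12C (0.04, adjusted p = 0.216, both limma), also named after their values were seen, did not pass. The kinase DAPK3 (0.75) and the small GTPase RHOB (0.51) were the higher ones. Both were also higher in EV_B than in EV_A, by 0.11 and 0.34. RNA levels give no measure of phosphorylation.

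Of 22 other actin-binding genes 10 were higher and 10 lower, against 35.4% and 34.6% of all genes, with a median of -0.04. The largest rises called in all 4 clone pairs were those of the bundling protein LCP1 (3.55), the LIM proteins CSRP2 (1.47), LIMA1 (0.73) and CSRP1 (0.46), and the genes that fell in all 4 included ACTN4 (-0.62), SVIL (-0.47) and TMOD2 (-0.46). Of 13 focal adhesion genes 4 were higher and 6 lower, against the same shares of all genes, with a median of 0.05. TNS1 (3.87), ZYX (0.70), TGFB1I1 (0.46) and TRIP6 (0.42) rose, and TNS3 (-0.64), TNS2 (-0.44), TLN1 (-0.26) and PXN (-0.20) fell, in all 4 clone pairs. Several of these genes also differed between the EV clones, in the same direction. EV_B versus EV_A was -0.57 in TNS3, -0.41 in SVIL, 1.46 in LCP1, 0.93 in TNS1, 0.48 in LIMA1 and 0.33 in ZYX. ACTN4, CSRP2, TMOD2, TGFB1I1, TNS2 and PXN were not called between the EV clones. LCP1 varied widely in TTP_H3 (739.5 ± 408).

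Of 15 measured genes on the list of SRF, its MRTF cofactors and their widely cited targets, 7 were higher and 6 lower, against 35.4% and 34.6% of all genes. In all 4 clone pairs 3 were higher and 6 lower, against 19.0% and 19.5%, and the median was -0.04. The list holds none of the 9 genes described here, so these counts and this median leave them out. The 7 higher genes include the cofactors MKL1 and MKL2 (0.16, adjusted p = 0.00409, limma), the latter named after its values were seen. SRF had a change of -0.04 ± 0.0223 (adjusted p = 0.146, limma), and its cofactor MKL1 was higher by 0.23 ± 0.0442 (adjusted p = 2.95e-05). CTGF (1.13) and ANKRD1 (0.31) were higher in all 4 clone pairs, and ACTB, MYH9, FLNA (-0.31) and CYR61 (-0.24) lower.

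**Figure D5:**
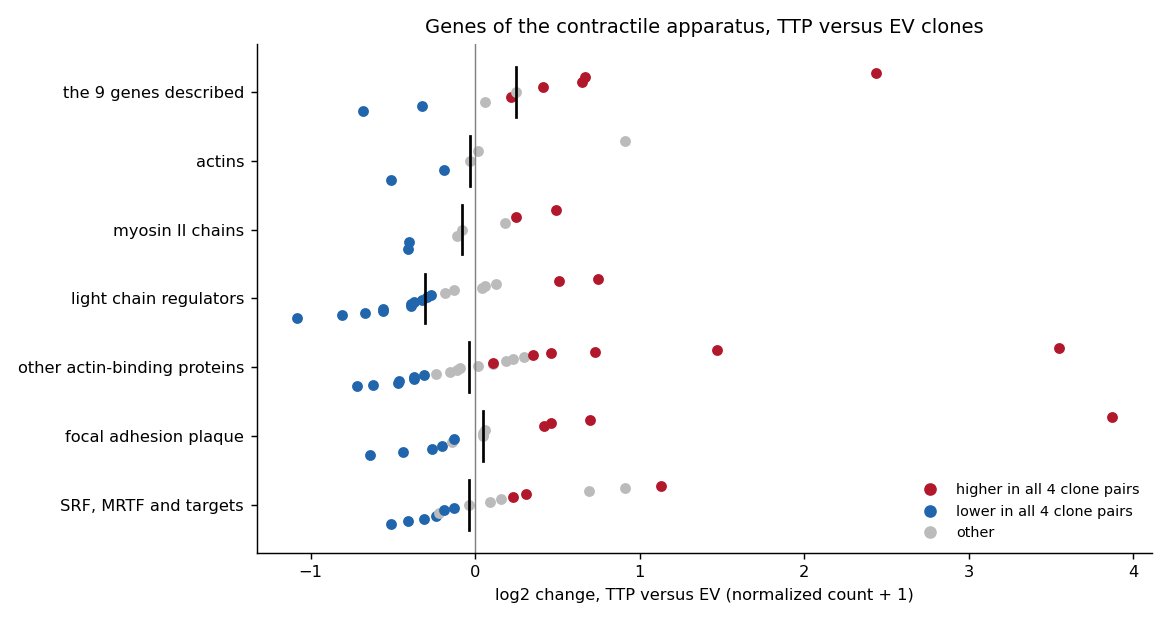
Log2 change of TTP versus EV (x axis, normalized count + 1) for the 9 genes and for the 6 lists of actin and myosin genes (y axis), 1 point per measured gene; red and blue points were called higher or lower in all 4 clone pairs, grey points were not, and black bars are list medians. The median is 0.25 for the 9 genes and -0.31 for the regulators of light chain phosphorylation.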

How the data were processed

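RNA-seq libraries of 4 clones (16 libraries, 4 per clone) were grouped by library name. DESeq2, featureCounts, Subread 1.5.2, STAR 2.5.2b, Trimmomatic 0.36 and the build GRCh38 are listed, per the submitters' processing notes; settings and annotation are not given in the sources used here. In the table that the authors deposited, each gene has a normalized signal per library, by its values a read count over 1 size factor per library. Log2 fold changes and p-values of TTP against EV stand beside it, per the file headers. The lowest gene averaged 9.68 over the libraries; genes under that level are not analysed here. Dividing by the value of 1 read gave whole numbers, within 0.001, for 100% of values; in TTP_H3 replicates 1 and 3 that step is near 1, and the check is weaker there.

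The test was limma 3.58.1 (R 4.3.3, robust, trend) on log2(value + 1), with all 16 libraries in 4 clone groups, no filter and Benjamini-Hochberg adjustment over 14857 genes. The pseudocount of 1 understates changes of genes with few reads. Shares were tested by exact permutation. The method was tested on simulated data. Also run were DESeq2 1.42.0 and edgeR 4.0.16 on recovered reads, other pseudocounts, low-value filters and scalings, other gene lengths for shares, each EV clone alone, reads summed per clone, a replicate block and leaving out libraries. No library was recounted, so precision rests on the counts as deposited.

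The genes, lists and tests were chosen with earlier results of these data known. Named beside the 9 genes are ZFP36, TPM3, up to 4 genes per list and direction with the largest change among those called in all 4 clone pairs, and the 5 genes most like TAGLN and CALD1. A gene that this rule names and a sequence are not reported here. Positions, lengths and 3′ UTRs came from GENCODE 29, which held 14820 of the genes, and promoters from RefSeq.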

Additional observations from a re-analysis of the deposited data

Results flagged for a closer look

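Replicate 3 of TTP_H3 was far from the other 3 libraries of its clone for 3 genes, by Dixon's criterion for a single stray value at 95%. TAGLN had 774.1 normalized counts there, TAGLN2 had 4911 and MYL9 had 3617, with gaps of 0.953, 0.865 and 0.961 of the range of the clone. The criterion was applied to 36 groups of 4 libraries, and chance flags about 1 in 20. All 3 stray values came from that library.

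CALD1 differed between the TTP clones, lower in TTP_H3 than in TTP_E11 by a log2 change of -0.27 (adjusted p = 2.84e-06, limma), and it was higher than in the EV clones in both.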

How the results depend on the processing

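Of the values that answer a comparison, 225 stayed within 1.5 times (counts) or kept their direction and side of the threshold (shares), and 5 did not. Of the single-gene values 713 kept both, 10 changed sign, 6 newly passed and 9 no longer passed. Genes called higher in TTP versus EV were 4 with reads summed per clone and 5 with EV_A alone. Leaving out 1 library gave 6 to 7 genes higher and 2 lower in TTP versus EV, 4 to 5 higher and 2 lower in all 4 clone pairs, 1 to 2 called in TTP_H3 versus TTP_E11 and 5 to 6 in EV_B versus EV_A. The shares of TPM1, TPM2 and TPM4 then differed by 1.3 to 1.63, 0.55 to 1.03 and 7.33 to 7.79 percentage points, and TPM2 passed only without EV_A replicate 1 (1.03, p = 0.0472, exact permutation test). With the libraries that stand apart (TTP_H3 replicate 3 and EV_B replicate 4) left out, an alternative chosen after seeing the data, 2 genes were called in TTP_H3 versus TTP_E11 and CNN2 was called in TTP versus EV (0.10). With EV_A alone the TPM2 share reversed to -0.367, and with EV_B alone it passed at 1.86. The causes were not tested.

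Single genes that changed sign were all near 0. For TTP_H3 versus TTP_E11, leaving out 1 library gave CNN2 values of -0.02 to 0.09, below 0 without TTP_H3 replicate 1 (-0.003) or 2 (-0.02), and TPM4 values of -0.01 to 0.02, below 0 without TTP_E11 replicate 1 (-0.001) or 3 (-0.004) or TTP_H3 replicate 1 or 4. For EV_B versus EV_A the ranges were -0.06 to 0.0002 in CNN2 and -0.01 to 0.09 in TPM1. Scaling turned CNN3 in EV_B versus EV_A to -0.0008 (total) and TPM4 in TTP_H3 versus TTP_E11 to -0.004 (upper quartile).

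The replicate number did not pair the libraries: over 24 pairs of clones and numbers the correlation of deviations was -0.0883 to 0.0962, and 5 of 24 were highest with their own number. The replicate block changed no count among the 9 genes (6 higher, 2 lower) and gave share differences of 1.4, 0.746 and 7.54. Over all genes it called 10354 in TTP versus EV, edgeR 10432, DESeq2 10227, and reads summed per clone 4375, against 10405. In TTP_H3 versus TTP_E11, 2851 genes were called with the libraries that stand apart left out, against 1735. Low counts limit TPM1-AS, MYH11, DES and SYNPO2, with means under 20 normalized counts, and LINC01111, with 2.361 and 4.003 in EV_A and EV_B.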
